A study of Mus musculus with 3 samples.

Results

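Amino acids cross cell membranes through solute carriers, and 7 families of these carriers were followed here in sorted stroma of mouse tumours: SLC1, SLC3, SLC6, SLC7, SLC36, SLC38 and SLC43. The members were all genes whose probe set carried a single gene symbol of 1 of these families ending in a plain number. They came to 59 of the 22087 genes named on the array, read by 61 of 31873 probe sets, and where a gene had several probe sets, that with the highest mean was kept. The choice did not use how the genes moved between samples. Slc6a9 shared its probe set with a neighbour and was left out.

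The data were log2 intensities from Affymetrix arrays, 1 array for each of 3 samples. All 3 samples carried the genotype Dicer1 +/-, so they share the loss of 1 copy of the gene for the enzyme that matures microRNAs, and all came from the stroma gate. That gate took DAPI-negative cells without PECAM1, an endothelial surface protein, and without tdTomato, the red fluorescent protein that marked tumour cells. The series title sets such stroma against that of Dicer1 +/+ tumours of a model called ASD. The +/+ stroma was not analysed here, so the values describe 1 group and no genotypes are compared. The labels name no promoter or Cre behind tdTomato, no age and no pooling of animals. They number the samples 1, 2 and 3 without tying each to an animal of its own. An SD here therefore covers the spread between these samples alone. The X-inactivation transcript Xist and Y-linked genes set sample 1 apart from samples 2 and 3, as given below, so that spread is not technical alone. Whether samples 2 and 3 came from separate animals is not stated, and the spread between them may be technical.

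Cationic, neutral and acidic amino acids each have carriers of their own. Many light chains of SLC7 reach the cell surface only as a pair with a heavy chain of SLC3, and such pairs work as exchangers that give out one amino acid for another. Sodium-driven carriers of SLC38 load cells with neutral amino acids, while SLC1 holds sodium-driven glutamate carriers and exchangers of neutral amino acids. SLC36 carriers use protons and act partly on lysosomes, and many SLC6 carriers serve neurotransmitters and osmolytes. In tumour stroma these carriers are known above all through glutamine and arginine use by myeloid cells and fibroblasts, and through cystine import for glutathione. A well known regulator of several of them is ATF4, the transcription factor of the amino acid stress response.

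ATF4 acts with C/EBP factors on a composite DNA element, and the letters TGATGNAAN were searched on both strands of the promoters in the RefSeq promoter table (build GRCm38.p6, 250 bases before to 50 after each start). No other motif was searched. The table held promoters of 42 of the 59 members. A gene counted as matched if any of its listed promoters held the letters, so genes with several promoters had more chances. Matches were present for 4 of these 42 genes (9.52%), against 1215 of 27025 genes in the whole table (4.50%), and the 4 were Slc7a11, Slc7a7, Slc1a4 and Slc6a21. Genes of the amino acid stress list matched in 6 of 16 cases (37.5%), namely Asns, Chac1, Trib3, Nupr1, Atf3 and Vldlr. Slc7a11, the cystine carrier, and Slc7a7 each held 2 matches in 1 promoter, as did 23 genes in all. A match is a run of letters and no evidence of binding.

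The sequences below are shown because Slc7a11 and Chac1 were a member and a stress-list gene with matches and much higher values in sample 3. Slc1a4 and Slc7a7 also carried matches and had ranges under 0.5. The member Slc6a12 and the stress-list gene Sesn2, also highest in sample 3, are not among the matched genes named above. Each is read 5′ to 3′ on the strand of its gene, with the matches to TGATGNAAN in capitals. The Slc7a11 stretch is chr3:50443614-50443713 on the minus strand, the 100 bases before the start, with matches that begin at -66 and -48 from it. The Chac1 stretch is chr2:119350992-119351091 on the plus strand, with a match at -194. Slc1a4 is shown at chr11:20332700-20332728 on the minus strand, where the match begins at -5, and Slc7a7 at chr14:54418067-54418095 on the minus strand, where it begins at -141. That promoter, 1 of 5 listed for Slc7a7, holds a further match at -1 outside the bases shown, and that further match is also counted at -243 from another of the gene's starts.
Slc7a11: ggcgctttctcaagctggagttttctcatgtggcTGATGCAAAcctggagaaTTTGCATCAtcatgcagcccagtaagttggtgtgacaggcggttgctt
Chac1: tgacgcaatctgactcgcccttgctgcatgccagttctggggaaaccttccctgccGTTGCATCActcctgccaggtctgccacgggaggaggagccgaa
Slc1a4: tgcctcctgcGTTGCATCAtctccagcct
Slc7a7: cgcttgggctTGATGAAAGgttcactggg

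A gene counted as detected on an array when its log2 intensity exceeded the 95th percentile of 1438 probe sets for olfactory, vomeronasal and taste receptors, genes unlikely to be read in stroma. This threshold was 5.16, 5.11 and 5.20 in samples 1 to 3. Levels of different genes are not ranked against each other, since probe sets differ in brightness. The gate's cell content was checked with marker lists. All 10 fibroblast, 10 pericyte, 10 macrophage and 10 neutrophil markers were detected on every array, as were 9 of 9 measured dendritic cell and 8 of 8 measured T cell markers, and none of 9 markers of kidney, gut and liver epithelium was detected on any. Of 9 oral and airway gland markers, 3 were detected on every array and 6 on at least 1. Lipf, 1 of these gland markers, was at 3.11, 9.24 and 3.42 in samples 1 to 3. Endothelial genes, which the gate should leave out, were detected on every array in 7 of 10 cases. All 10 endothelial genes were detected on at least 1 array. Pecam1, the gene of the gate's own endothelial protein, was at 8.02, 7.20 and 8.25. Sample 1 stood apart in the X-inactivation transcript Xist, at 9.78 against 3.43 and 3.49, and in Y-linked genes such as Eif2s3y, at 3.86 against 8.51 and 8.71. Ranges above 0.5 that rest on 1 sample are given without it as well for the members detected on every array.

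Of the 59 transporter genes, 29 were detected on all 3 arrays (49.2%), 8 on 1 or 2 arrays and 22 on none. Over all named genes outside the receptor reference the share was 60.5%, and over protein-coding genes alone it was 66.9%. The share among transporters was the lower, as a description with no test run on the list. Detection differed between role groups, which are small. All 3 members of SLC43, 7 of 11 of SLC38, 6 of 10 light chains of SLC7 and 3 of 4 of SLC36 were detected on every array. The shares in SLC38 and the light chains were near that of all named genes. Counts were 3 of 7 in SLC1, 2 of 5 cationic carriers, 3 of 9 neurotransmitter and osmolyte carriers of SLC6 and 1 of 2 heavy chains. Of the amino acid and orphan carriers of SLC6 only Slc6a7 was detected on every array, 1 of 8. The plot of detection by role shows these counts.

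**Figure D1:**
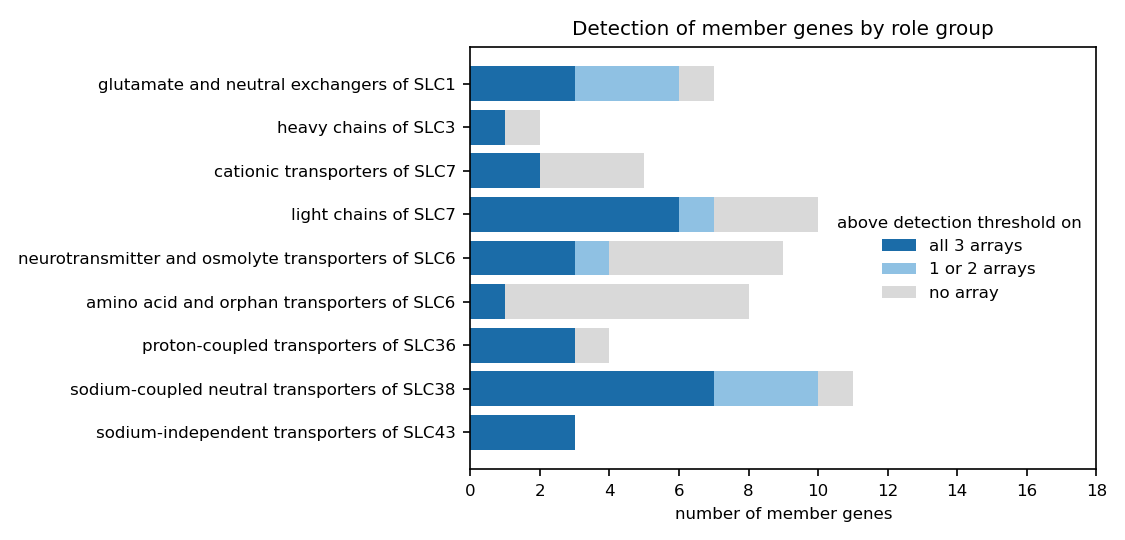
Number of member genes (x axis) in each role group (y axis), split by whether the log2 intensity lay above the detection threshold on all 3 arrays, on 1 or 2, or on none. All 3 SLC43 genes were detected on every array, against 1 of 8 genes among the amino acid and orphan carriers of SLC6.

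Heavy chains and their partners fell into a detected and an undetected set. Slc3a2, the heavy chain known as 4F2hc or CD98, was at 9.60, 9.68 and 9.75 in samples 1 to 3, a mean of 9.68 ± 0.078 (SD, n = 3). Slc3a1, the rBAT chain of kidney and gut, was at 4.16, 4.16 and 4.23, below the threshold on every array. All 6 light chains known to pair with Slc3a2 were detected on all 3 arrays (Slc7a5, Slc7a6, Slc7a7, Slc7a8, Slc7a10 and Slc7a11). Slc7a9 and Slc7a13, the known partners of Slc3a1, were detected on none, with values from 3.23 to 3.49. A value below the threshold does not show that the cells lack the transcript.

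The light chains differed in how they varied. Slc7a5, or LAT1, which imports leucine and other large neutral amino acids, was at 8.36, 8.26 and 8.57, and its mean was 8.40 ± 0.16 (SD, n = 3). Slc7a6, which exchanges arginine for neutral amino acids with sodium, was at 7.53, 7.24 and 7.21 (7.33 ± 0.18, SD, n = 3). Slc7a7, its counterpart in macrophages and epithelia, was at 8.24, 7.77 and 8.25 (8.08 ± 0.27, SD, n = 3). These carriers stayed within a range of 0.48 on the log2 scale. Slc7a10, a carrier of small neutral amino acids, was dim at 5.71, 5.70 and 5.85.

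Slc7a11, or xCT, imports cystine in exchange for glutamate and thereby feeds glutathione synthesis. It was at 8.66 in sample 1, 8.69 in sample 2 and 9.93 in sample 3. Samples 1 and 2 were nearly equal, and sample 3 was 2.42-fold above the lowest, a range of 1.28. Only 2.86% of named genes detected on at least 1 array had a range as wide. Without sample 3 the range was 0.029, and without sample 1 or 2 it was 1.25 or 1.28. Its heavy chain Slc3a2 had a range of 0.16.

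Slc7a8, or LAT2, a carrier of neutral amino acids, varied in another direction. It was at 8.01, 8.36 and 7.56 in samples 1 to 3, with sample 2 above and sample 3 below the others. Its range of 0.80 was 0.45 without sample 2 and 0.35 without sample 3. The remaining light chain genes were near or under the threshold. Slc7a15 was at 5.08, 5.29 and 5.13, above it in sample 2 alone, and Slc7a12 was at 3.24 on every array.

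**Figure D2:**
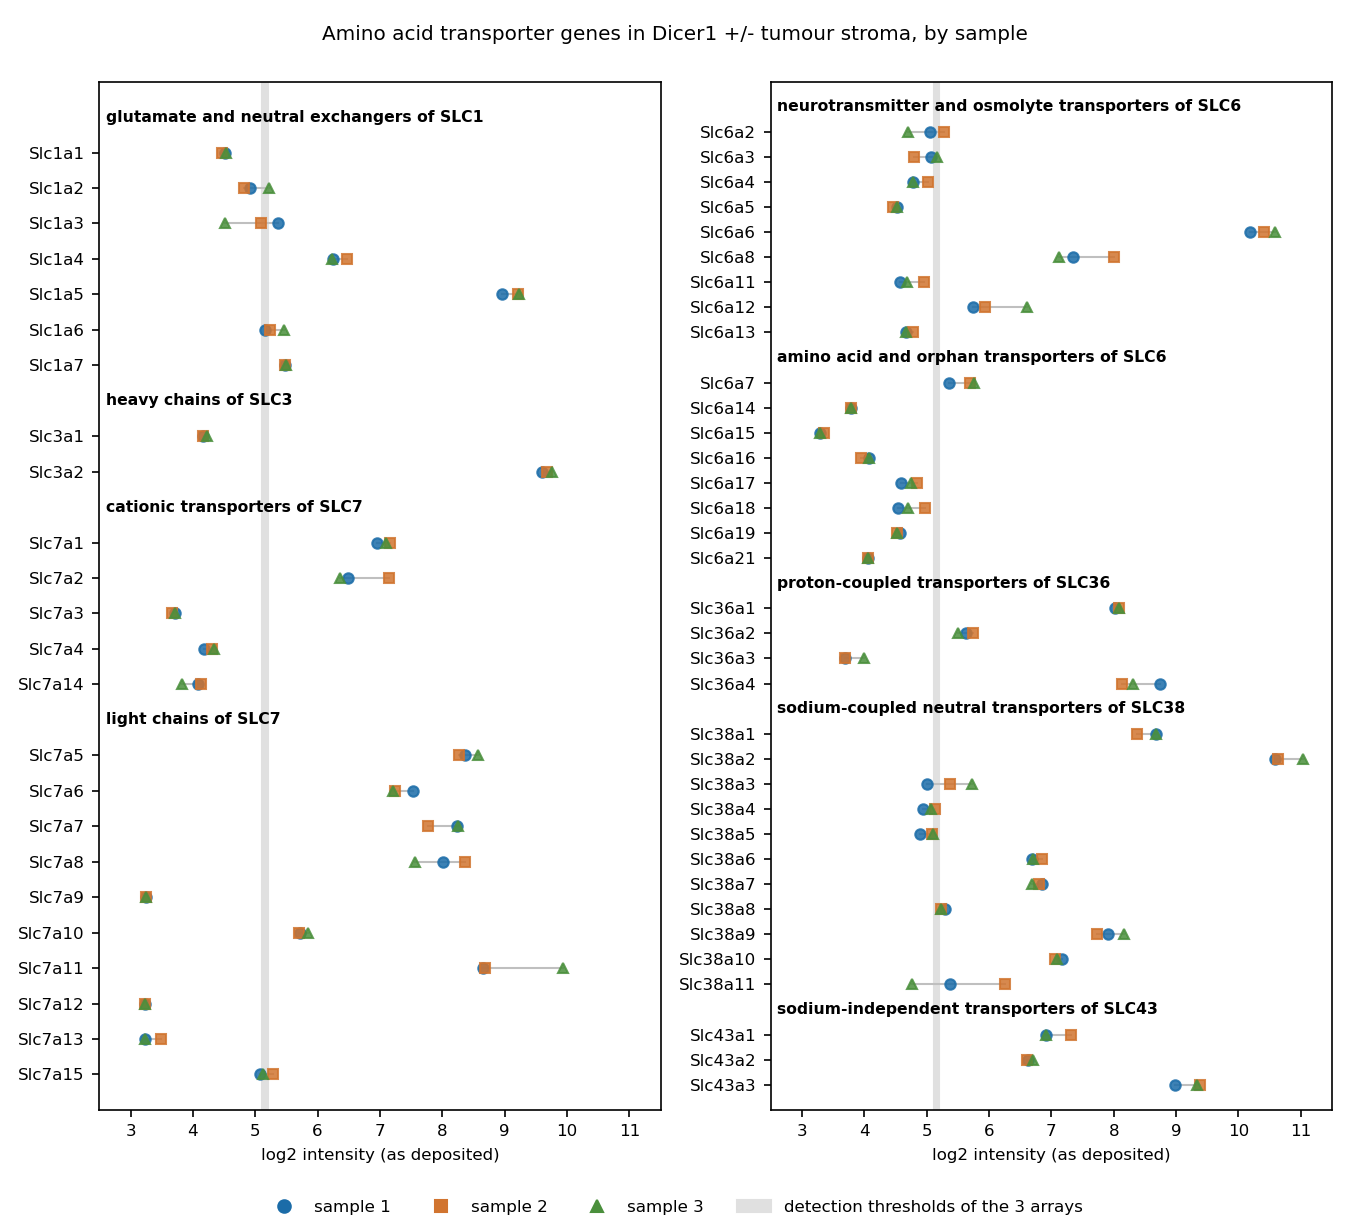
Log2 intensity as deposited (x axis) of all 59 member genes (y axis) in the 3 samples, grouped by role, with the grey band spanning the detection thresholds of the 3 arrays (5.11 to 5.20). Slc7a11 in sample 3 lies apart from its other values, Slc3a2 lies far above the band and Slc3a1 below it.

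Cationic carriers of SLC7 bring in arginine and lysine without a heavy chain. Slc7a1, or CAT1, the widely expressed form, was at 6.96, 7.16 and 7.09 (7.07 ± 0.10, SD, n = 3). Slc7a2, or CAT2, the form that macrophages induce, was at 6.49, 7.14 and 6.36, highest in sample 2 by 0.64 over sample 1. Its range of 0.78 was 0.13 without sample 2. Slc7a3, Slc7a4 and Slc7a14 were detected on no array. Their values ran from 3.66 to 4.35.

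In SLC1 both neutral exchangers were detected on every array, and of the 5 glutamate carriers 1 was detected on every array, 3 on some and 1 on none. Slc1a5, or ASCT2, which exchanges glutamine and other neutral amino acids, was at 8.96, 9.21 and 9.22 (9.13 ± 0.15, SD, n = 3). Slc1a4, or ASCT1, a carrier of serine and alanine, was at 6.25, 6.47 and 6.23 (6.32 ± 0.13, SD, n = 3). Slc1a7, the retinal glutamate transporter, was the one that passed on all 3 arrays, at 5.48, 5.48 and 5.50. The equal values in samples 1 and 2 may make its SD of 0.013 too small, and it exceeded the threshold by 0.30 to 0.36.

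The other glutamate transporters sat near or below the threshold. Slc1a3, or GLAST, was at 5.36, 5.09 and 4.52 and was detected in sample 1 alone. Slc1a2, or GLT1, was at 4.92, 4.81 and 5.23, detected in sample 3 alone, and Slc1a6 was at 5.15, 5.24 and 5.46, detected in samples 2 and 3. Slc1a1 ran from 4.46 to 4.53. Without sample 1, 2 more members of the 59 would count as detected, Slc1a6 and Slc38a3.

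Carriers of SLC38 take up glutamine, alanine and other neutral amino acids with sodium. Slc38a2, or SNAT2, which cells induce when amino acids run short, was at 10.58, 10.64 and 11.04 (10.75 ± 0.25, SD, n = 3). Slc38a1, a close relative, was at 8.67, 8.37 and 8.68 (8.57 ± 0.18, SD, n = 3). Slc38a9, the lysosomal sensor that reports arginine to mTORC1, was at 7.92, 7.74 and 8.17 (7.94 ± 0.22, SD, n = 3). None of these 3 genes had a range above 0.46.

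Slc38a7, a lysosomal glutamine exporter, was at 6.85, 6.80 and 6.68. Slc38a10 was at 7.17, 7.06 and 7.09, and Slc38a6 at 6.69, 6.84 and 6.71. Slc38a8 passed by a small margin, at 5.30, 5.23 and 5.23, and was the only member lost when the median of all probe sets served as background. Slc38a3, a glutamine carrier of liver and brain, was at 5.01, 5.38 and 5.73, detected in samples 2 and 3. Slc38a4 was at 4.95, 5.14 and 5.08, detected in sample 2 alone, and Slc38a5 stayed below the threshold, from 4.90 to 5.10.

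Slc38a11, an orphan of the family, had the largest range among the members. It was at 5.37 in sample 1, 6.25 in sample 2 and 4.77 in sample 3, where it fell under the threshold. The range of 1.48 therefore carries little weight as a size, since its lowest value is background. Without sample 2 the range was 0.60, without sample 3 it was 0.89 and without sample 1 it stayed at 1.48.

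Carriers of SLC36 move small amino acids with protons. Slc36a1, or PAT1, which acts on lysosomes, was at 8.02, 8.09 and 8.09 (8.07 ± 0.040, SD, n = 3). Slc36a2 was dim, at 5.63, 5.75 and 5.50, and Slc36a3, the form of testis, was detected on no array, with a mean of 3.79. Slc36a4 was read by 2 probe sets that disagreed. The brighter gave 8.75, 8.13 and 8.30, highest in sample 1 with a range of 0.62 that was 0.17 without that sample, and the other 6.46, 6.69 and 6.77, lowest in sample 1, so no direction is given for this gene. Slc38a10 also had a second probe set, at 6.26, 5.94 and 5.92, likewise highest in sample 1.

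All members of SLC43 were detected. Slc43a1, or LAT3, a carrier of branched-chain amino acids, was at 6.92, 7.31 and 6.92 (7.05 ± 0.23, SD, n = 3), with equal values in samples 1 and 3. Slc43a2, or LAT4, was at 6.62, 6.61 and 6.71 (6.65 ± 0.054, SD, n = 3). Slc43a3, whose known substrates are purine bases and not amino acids, was at 8.98, 9.39 and 9.33 (9.23 ± 0.22, SD, n = 3).

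In SLC6, carriers of osmolytes and creatine were detected on every array and most carriers of neurotransmitters were not. Slc6a6, the taurine carrier, was at 10.18, 10.41 and 10.58 (10.39 ± 0.20, SD, n = 3). Slc6a8, the creatine carrier, was at 7.35, 8.01 and 7.13, with sample 2 above both others and a range of 0.88 that was 0.22 without sample 2. Slc6a12, the betaine and GABA carrier BGT1, was at 5.74, 5.93 and 6.61, highest in sample 3, with a range of 0.86 that was 0.19 without sample 3.

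Slc6a3, the dopamine carrier, and Slc6a4, the serotonin carrier, were below the threshold on all arrays, as were the GABA carriers Slc6a11 and Slc6a13 and the glycine carrier Slc6a5. Slc6a2, the noradrenaline carrier, reached 5.27 in sample 2 and was at 5.05 and 4.71 in samples 1 and 3. Slc6a7, a proline carrier known from brain, was at 5.36, 5.70 and 5.76. Slc6a14, Slc6a15, Slc6a16, Slc6a17, Slc6a18, Slc6a19 and Slc6a21 were detected on no array. Over all 22 undetected members the values ran from 3.23 to 5.17.

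Members that lie side by side in the genome did not always share detection. In RefSeq, 7 pairs of members, formed by 12 genes, had no other protein-coding gene between them. Both genes were detected on all arrays in 2 of these pairs, Slc36a2 with Slc36a1 and Slc38a1 with Slc38a2. A single gene was detected in 3 pairs, Slc36a2 beside Slc36a3, Slc38a2 beside Slc38a4 and Slc6a12 beside Slc6a13. Neither was in 2 pairs, Slc6a18 with Slc6a19 and Slc6a16 with Slc6a21.

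The spread of the transporters between samples was close to that of other genes. A range above 1, that is more than 2-fold between the highest and the lowest sample, was found for 2 of the 37 members detected on at least 1 array (5.41%), Slc7a11 and Slc38a11, and for 5.70% of all such genes, or 5.43% of the protein-coding ones. The median range of these 37 members was 0.32 and that of all 13636 such genes 0.31. Among the 29 members detected on every array, 23 had a range under 0.5 (79.3%, against 74.7% of all genes detected on every array) and 5 had a range from 0.5 to 1. With a single array per sample, no test of the samples against each other was possible for a gene.

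**Figure D3:**
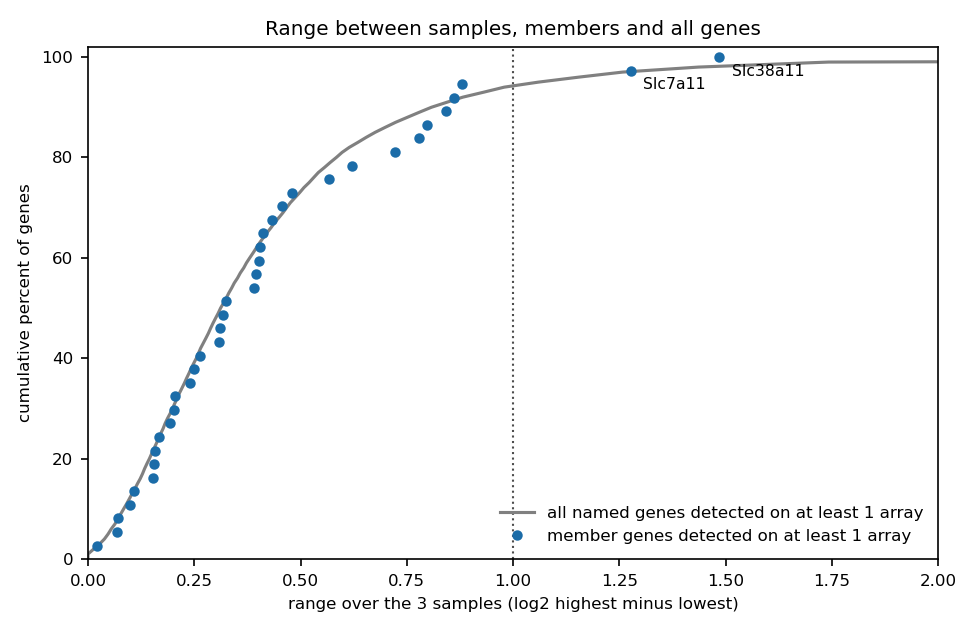
Cumulative percent of genes (y axis) against the range over the 3 samples, the highest minus the lowest log2 value (x axis, drawn up to 2), for the 37 members and the 13636 named genes detected on at least 1 array, with a dotted line at 1. The members follow the curve of all genes, and Slc7a11 and Slc38a11 lie beyond the line.

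Shifts of whole groups between samples were described by medians. Over the 37 members the median deviation from a gene's mean was -0.067 in sample 1, 0.021 in sample 2 and 0.021 in sample 3, a span of 0.089, against a span of 0.007 over all 13636 genes detected, a far larger set. The span was 0.12 for the 6 detected genes of SLC1, 0.19 for 7 light chains of SLC7, 0.11 for 3 genes of SLC36, 0.043 for 10 of SLC38 and 0.28 for 3 of SLC43. It was 0.32 for 4 neurotransmitter and osmolyte carriers of SLC6. The widest spans came from groups with 1 or 2 detected genes, 0.42 for the cationic carriers Slc7a1 and Slc7a2 and 0.40 for Slc6a7 alone, and Slc3a2 alone had 0.16. Sample 3 held the highest value for 15 of 29 members detected on all arrays (51.7%), against 32.8% of all such genes. That count was 13 with quantile normalization, against 36.5% of all such genes, and 10 with median centring, against 30.2%, and 13 of the 15 genes had a range under 0.5.

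Some members varied in the same order of samples as markers of cell types. Slc7a8, Slc6a8, Slc7a2 and Slc38a11 had their highest value in sample 2 and their lowest in sample 3. Fibroblast markers were highest in sample 2 for 9 of 10 genes and lowest in sample 3 for 10 of 10, with median deviations of 0.077, 0.41 and -0.47. Pericyte and smooth muscle markers were highest in sample 2 for 9 of 10 and lowest in sample 3 for 8 of 10, and macrophage markers for 6 and 6 of 10. For mast cell markers these counts were 5 and 6 of 9 detected genes. They were 4 and 2 of 5 for erythroid markers and 3 and 1 of 5 for glial and neuron markers. Oral and airway gland markers were highest in sample 2 for 4 of 6 detected genes and lowest in sample 3 for 0. The median deviations of the gland list were -0.89, 0.68 and 0.16. Pdgfra, a fibroblast receptor, was at 8.55, 9.24 and 7.82. Whether these cell types carry the differences in the transporters was not tested, and in bulk RNA fewer cells of a type and less RNA per cell cannot be told apart.

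Slc7a11 and Slc6a12 were highest in sample 3, as were other marker lists. Neutrophil markers were highest there for 9 of 10 genes, with median deviations of -0.47, -0.036 and 0.42, dendritic cell markers for 8 of 9, endothelial markers for 8 of 10 and myogenic markers for 6 of 9. Csf3r, the neutrophil growth factor receptor, was at 8.62, 9.04 and 9.83, while S100a8, another neutrophil gene, had a range of 0.039. Median deviations were 0.066, -0.45 and 0.49 for the dendritic cell list, -0.21, -0.29 and 0.48 for the endothelial list and -0.095, -0.28 and 0.28 for the myogenic list. The part of these cells in the value of Slc7a11 was not tested.

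**Figure D4:**
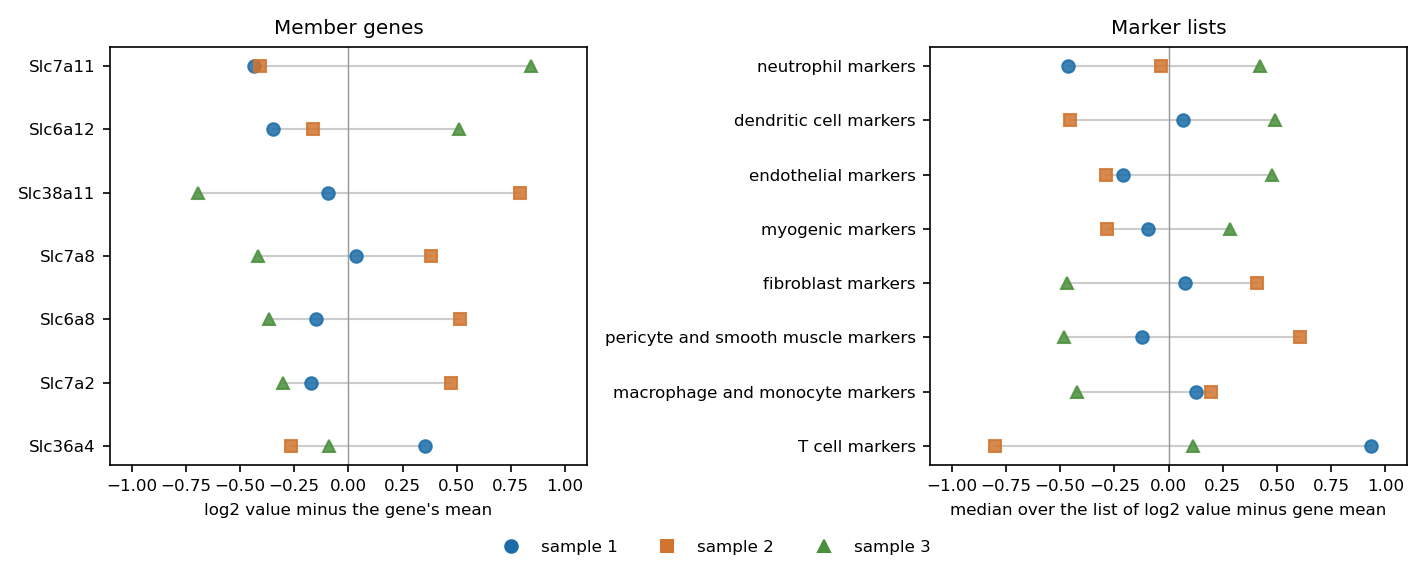
Left, log2 value minus the gene's mean over the 3 samples (x axis) for the 6 members detected on all arrays with a range of 0.5 or more and for Slc38a11. Right, the median of the same quantity over each marker list drawn (8 to 10 genes detected). Slc7a11 and Slc6a12 have sample 3 on the right, and Slc7a8, Slc6a8, Slc7a2 and Slc38a11 have sample 2 on the right and sample 3 on the left, as the fibroblast and pericyte lists do.

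Genes that act with the transporters differed in how far they varied. In the amino acid stress list 16 of 18 genes were detected on all arrays and 2 of these had a range above 1 (12.5%, against 5.70% of all genes detected). Of the 16, 9 were highest in sample 3 and 9 were lowest in sample 1, against 32.8% and 30.7% of all genes detected on every array. The list's median deviations were -0.093, 0.019 and 0.082. Atf4 itself was at 10.95, 10.95 and 10.97, Asns, which makes asparagine, at 7.08, 7.09 and 7.24, and Ddit3, which encodes CHOP, at 9.13, 9.25 and 9.37. Chac1, a glutathione-degrading enzyme, was at 5.50, 5.75 and 6.87, highest in sample 3 by 1.12 over sample 2. Sesn2, which senses leucine, was at 6.18, 6.80 and 7.28. The range of Chac1 was 0.25 without sample 3, and that of Sesn2 was 0.48 without sample 1 and 0.62 without sample 3. Trib3, another target of ATF4, was detected on no array.

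In the glutathione list all 11 genes were detected and 1 had a range above 1 (9.09%, against 5.70% of all genes detected). Gclc and Gclm, the subunits of the enzyme that uses cysteine for glutathione, had ranges of 0.032 and 0.045, and Gss, the next enzyme, was at 6.25, 6.49 and 6.49. Gsr, which recycles glutathione, was at 7.93, 9.10 and 8.67. Its range was 1.17, and 0.44 without sample 1. It was lowest in sample 1, unlike Slc7a11, whose samples 1 and 2 were nearly equal.

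Of 11 measured glutamine and arginine enzymes 9 were detected on all arrays. Of the 10 detected on any, 8 were highest in sample 3, against 32.8% of all genes detected on every array. Glul, which makes glutamine, was at 9.90, 9.98 and 9.73, Got1 at 8.54, 8.55 and 8.74 and Got2 at 8.48, 8.55 and 8.93, the last pair being aspartate aminotransferases. The arginases, which split arginine, had ranges above 1, the only such genes among those 10 (20.0%, against 5.70% of all genes detected). Arg2, the mitochondrial form, was at 7.97, 7.97 and 9.25, and Arg1, a gene of myeloid cells, at 5.96, 5.48 and 7.11 (range 1.63, and 0.47 without sample 3). Arg2 without sample 3 had a range of 0.0030. The carriers that bring arginine in did not share this order: Slc7a1 had a range of 0.20 and Slc7a2 was lowest in sample 3.

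Among genes of amino acid sensing by mTORC1, 19 of 20 measured were detected and none had a range above 1, with Mtor at 7.70, 7.66 and 7.70, Rptor at 7.24, 7.32 and 7.32 and Rraga at 8.67, 8.54 and 8.44. Of 15 other amino acid and peptide carriers 10 were detected, none with a range above 1. They included Slc16a10, an aromatic amino acid carrier, at 7.09, 7.16 and 7.05, and Slc6a20a, a proline carrier whose symbol ends in a letter, at 5.94, 5.97 and 6.07. Slc6a20b was not detected.

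**Figure D5:**
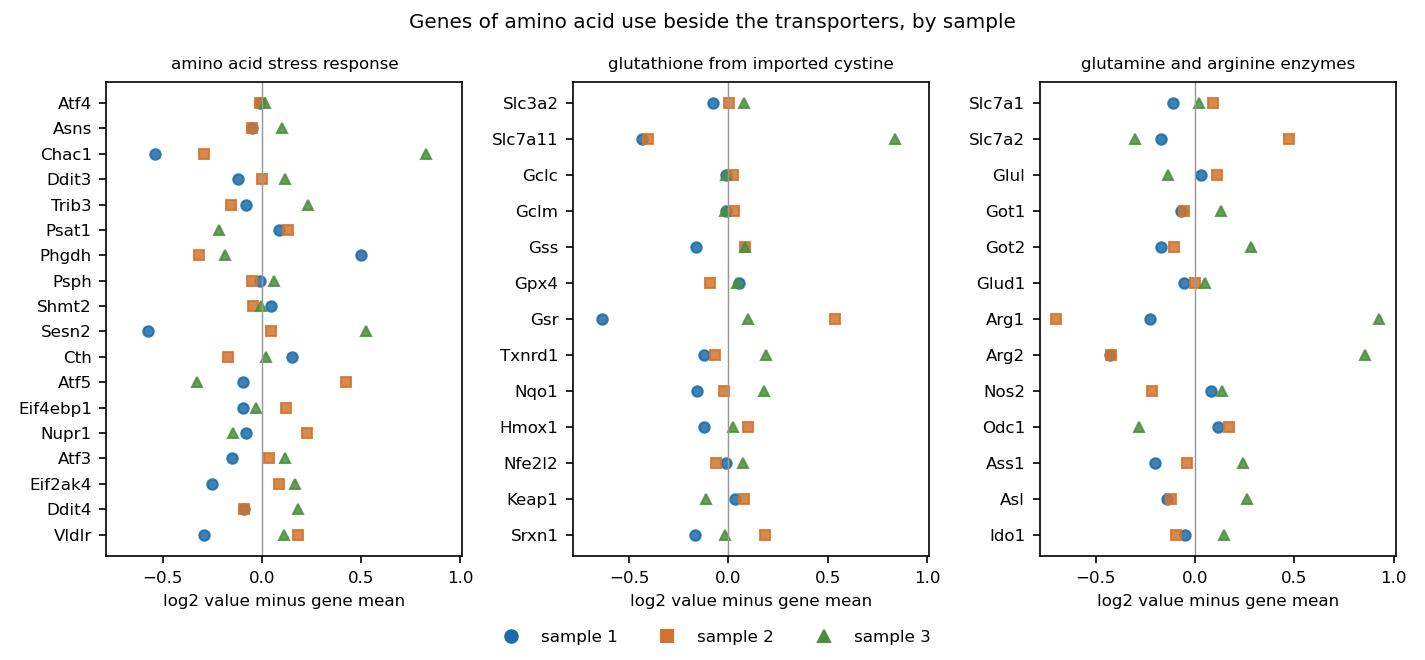
Log2 value minus the gene's mean over the 3 samples (x axis) for genes of the amino acid stress, glutathione and glutamine and arginine lists (y axis), with Slc3a2, Slc7a11, Slc7a1 and Slc7a2 added. Sample 3 lies to the right for Slc7a11, Chac1, Sesn2, Arg1 and Arg2, while Atf4, Gclc and Gclm lie within 0.045 from lowest to highest.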

How the data were processed

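The authors deposited log2 intensities, 1 per probe set and array. Partek is named in the submitters' processing notes, with no version or role, and no method for background correction, normalization or summarization is named in the sources used here. That the scale is log2 was inferred from the values, which ran from 2.00 to 13.18. GEO's platform annotation gave 1 symbol for 23094 probe sets, the only ones used. All 59 members matched the RefSeq gene table of GRCm38.p6 by gene ID with the same symbol. Exactly equal values in at least 2 samples occurred in 14 of the 59 members, 3 of them among the 29 detected, and an SD resting on a tie may be too small.

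Detection, ranges, deviations and motif matches were computed with Python 3.11.15, numpy 2.4.6 and pandas 2.3.3. The range calls were run on simulated data with shifts of known size and little noise. That checked the code alone and not how reliable the calls are in these data. With 1 group of 3 samples no test was run, and the number of arrays limits the precision. Every member is named. Of the pathway lists, the first 3 measured genes and those with a range above 1 are given. Other genes (Csf3r, Lipf, Pecam1, Ddit3, Trib3, Nupr1, Atf3, Vldlr) were chosen after their values were seen. So were the pairing of light with heavy chains, the neighbouring genes and the promoters printed. The members and lists were chosen with earlier results of these data known.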

Additional observations from a re-analysis of the deposited data

How the results depend on the processing

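No paired analysis was possible because the samples form 1 group. The count of members detected on all arrays, 29, was 45 with the 90th percentile of the receptor reference (72.0% of all genes), 21 with the 99th (38.1%), 33 with the mean over arrays (63.4%) and 28 to 31 otherwise (57.4% to 61.7%). With the 99th percentile, Slc1a4, Slc1a7, Slc36a2, Slc38a8, Slc6a12, Slc6a7, Slc7a10 and Slc7a2 were not detected. The count of members with a range above 1, 2 as reported, was 1 when only members detected on all arrays entered (4.86% of all genes), 5 above a threshold of 0.8 (10.3%), 0 above 1.5 (1.68%), and 0 to 2 without 1 sample (1.85% to 3.49%), as a range over fewer samples cannot grow. The span of sample medians moved by more than its SD with the mean of the members in SLC1 (0.033) and SLC38 (0.095), and without a detection filter in the light chains of SLC7 (0.029), the neurotransmitter and osmolyte carriers of SLC6 (0.16), SLC36 (0.019) and SLC38 (0.078). Without 1 sample it ran from 0.016 to 0.105 over all members, 0.022 to 0.14 in SLC1, 0.014 to 0.16 in the light chains, 0.0014 to 0.13 in SLC36, 0.0040 to 0.014 in SLC38 and 0.056 to 0.39 in SLC43. Quantile normalization and median centring moved no span by more than its SD, and the cause of the shifts was not tested. Of 29 levels, those of Slc36a4 and Slc38a10 moved by more than their SD with the mean of both probe sets, and none did with quantile normalization. Leaving out 1 of 3 samples cannot move a mean by more than its SD, so that setting could not test the levels.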
